A study of Mus musculus with 9 samples.

Results

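This account covers 33 genes of T cells and cytotoxic lymphocytes in mouse lung, from the chains of the T cell receptor complex to the granule proteins and cytokines of killer cells. They were chosen by symbol: every probe whose symbol is one of the 33 was taken, and the probe with the highest mean intensity stood for its gene. All 33 symbols were found, on 37 probes, among 25762 genes of the array. Whole lungs of BALB/c mice of about 12 weeks were profiled on 9 Agilent arrays of 2 colours. The labels give channel 2 (Cy5) of 5 arrays the RNA of an ovalbumin-challenged lung (OVA). Ovalbumin is the allergen of a common mouse model of allergic airway inflammation. For 4 arrays they give channel 2 the RNA of a lung treated with PBS, the saline control. By the labels, channel 1 (Cy3) of all 9 arrays held combined RNA of the PBS-treated lungs. Each RNA had been amplified in 2 rounds from 100 ng. The labels record airway hyperresponsiveness, lung inflammation and raised serum IgE for the OVA-challenged mice, while nothing used here gives the sensitisation schedule, the dose or the time of harvest. Nothing in the labels ties each lung to a separate mouse. The p-values below therefore measure the spread between these samples, which may be technical.

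T cells read antigen through a receptor whose signal is carried into the cell by the CD3 chains (Cd3e, Cd3d, Cd3g) and the zeta chain (Cd247), with Cd4 or Cd8 as coreceptor. The kinase Lck phosphorylates these chains, Zap70 docks on them, and the adaptor Lat gathers the next enzymes. Helper T cells act mostly through cytokines, whereas cytotoxic T cells and natural killer (NK) cells release perforin and granzymes or show Fas ligand. In the ovalbumin model, CD4+ T cells of the type 2 kind are known as drivers of eosinophil influx and mucus.

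Single channels went against the labels, and this bears on every direction given here. Clca1, which encodes a protein secreted by mucus-producing airway cells, had a channel 2 intensity of 36.4 ± 2.03 on the OVA arrays (SD, n = 5), against 33.3 ± 3.84 on the PBS arrays (SD, n = 4). Its channel 1 intensity was 0.362 ± 0.0642 on the OVA arrays, against 33.6 ± 1.2 on the PBS arrays. Fabp1, the liver-type fatty acid binding protein, stood the other way round. On the OVA arrays it read 0.126 ± 0.0152 for channel 2 and 2.47 ± 0.318 for channel 1, against 0.103 ± 0.015 and 0.108 ± 0.005 on the PBS arrays. Channel 1 of the OVA arrays therefore stood apart from the 3 other sets of values, although the labels give it the same pool as channel 1 of the PBS arrays. Which RNA each channel held cannot be told apart from these files. Directions below are those of the deposited ratio, channel 2 over channel 1, and would be reversed for the OVA arrays if their channels had been exchanged. The labelled tissue could be checked only in part. Of its defining genes, the surfactant genes Sftpc (31.7 in channel 2 and 36.3 in channel 1) and Sftpb (36.5 and 41.1 in the same channels) each had a value on 1 OVA array alone, the alveolar gene Cldn18 on 1 OVA array and the 4 PBS arrays, the endothelial gene Pecam1 and the ciliated-cell gene Foxj1 had values on all arrays, and Sftpa1, Scgb1a1 and Ager matched no probe.

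In the ratio, 20 of the 33 genes passed an adjusted p of 0.05 between OVA and PBS arrays (limma, two-sided, adjusted over all 25721 genes tested), where 40.3% of all genes did (at an unadjusted p under 0.05, 23 of the 33 and 46.3% of all genes). Of the 20 called, 16 were higher on the OVA arrays, or 48.5% of the 33, against 17.3% of all genes. The other 4 (Lef1, Prf1, Txk and Tcf7) were lower, or 12.1%, against 23% of all genes. The median change of the 33 genes was 0.22 on the log2 scale, and that of all genes was -0.02. The OVA arrays lay wholly above the PBS arrays for 15 of the 33 genes (14.7% of all genes) and wholly below them for 4 (19.7% of all genes). Changes were mostly small: 6 of the called genes differed by at least 1.5-fold (9.27% of all genes), namely Ifng, Il2rb, Cd5, Gzmb, Thy1 and Lef1, and 2 of them, Ifng and Il2rb, by at least 2-fold (3.04% of all genes). In whole tissue, fewer cells of a type and less RNA per cell cannot be told apart, so a level here is that of the lung RNA. With the signs of the OVA ratios turned, 4 of the 33 genes were higher and 16 lower, against 22.5% and 16.5% of all genes. With quantile-normalised ratios, 7 of the 20 calls remained, for Cd3g, Cd4, Cd28, Il2rb, Thy1, Lef1 and Ifng.

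**Figure D1:**
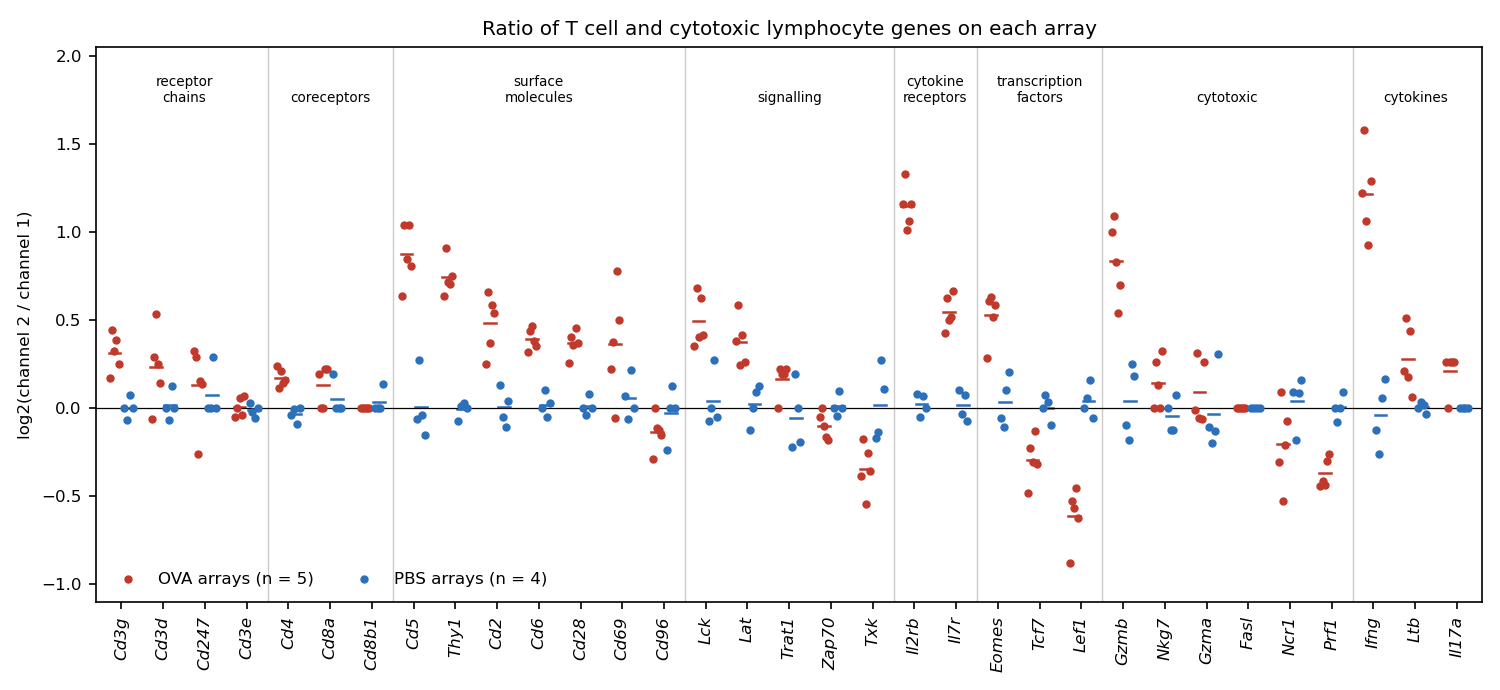
The log2 ratio of channel 2 over channel 1 (vertical axis) for each of the 33 genes (horizontal axis, by role), with 1 point per array, OVA arrays in red left of PBS arrays in blue, and short lines at the group means. The PBS arrays lie around 0 for all genes, and the OVA arrays stand farthest from them for Ifng and Il2rb above and for Lef1 below.

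Promoter sequence was available for 4 of the 6 genes that differed by at least 1.5-fold, and it is shown so that the start-site neighbourhood of the genes with the largest changes can be compared. Each stretch runs from 250 bases before to 50 after the start site and is taken from RefSeq on GRCm38.p6. Cd5 lies at chr19:10738925-10739224 (minus strand), Lef1 at chr3:131110047-131110346 (plus strand), Gzmb at chr14:56262285-56262584 (minus strand) and Ifng at chr10:118440796-118441095 (plus strand). Capitals mark matches to any of 6 short motifs searched on both strands.
Cd5: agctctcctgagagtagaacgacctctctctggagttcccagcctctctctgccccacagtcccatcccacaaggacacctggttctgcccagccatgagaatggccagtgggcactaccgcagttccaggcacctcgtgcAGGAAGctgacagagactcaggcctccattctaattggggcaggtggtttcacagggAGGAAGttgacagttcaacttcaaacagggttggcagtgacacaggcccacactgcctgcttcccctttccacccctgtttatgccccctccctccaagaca
Gzmb: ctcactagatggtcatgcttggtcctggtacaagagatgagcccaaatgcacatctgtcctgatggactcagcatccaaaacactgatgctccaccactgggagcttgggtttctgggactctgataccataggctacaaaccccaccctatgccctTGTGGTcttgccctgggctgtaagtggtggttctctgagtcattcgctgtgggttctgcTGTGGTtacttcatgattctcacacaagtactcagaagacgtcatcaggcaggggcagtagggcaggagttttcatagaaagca
Ifng: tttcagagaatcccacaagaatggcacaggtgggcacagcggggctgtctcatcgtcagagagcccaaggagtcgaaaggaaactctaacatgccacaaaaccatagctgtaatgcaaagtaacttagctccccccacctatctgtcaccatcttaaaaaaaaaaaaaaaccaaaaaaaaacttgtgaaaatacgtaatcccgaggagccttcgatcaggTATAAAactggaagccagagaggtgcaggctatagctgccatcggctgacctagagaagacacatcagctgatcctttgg
Lef1: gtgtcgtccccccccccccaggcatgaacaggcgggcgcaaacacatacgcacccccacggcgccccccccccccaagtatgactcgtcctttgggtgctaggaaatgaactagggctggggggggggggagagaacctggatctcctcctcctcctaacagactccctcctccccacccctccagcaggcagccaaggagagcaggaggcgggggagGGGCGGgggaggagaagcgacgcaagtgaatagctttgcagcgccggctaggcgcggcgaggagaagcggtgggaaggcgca
Cd5 held the ETS core AGGAAG at positions -109 and -52 from its start, and Gzmb the RUNX core TGTGGT at -93 and -34. Ifng held the TATA box TATAAA at -30 and Lef1 the GC box GGGCGG at -32. No further match to these motifs, or to the T-box core GGTGTG or the TCF/LEF core CTTTGA, was found in these 4 windows. Promoters were matched for 25 of the 33 genes. The ETS core was in 13 of the 25 (52.0%), against 35.1% of all 27025 promoters of this length, and the RUNX core in 11 (44.0%), against 16.9%. The T-box core was in 6 (24%, against 19%), the TCF/LEF core in 5 (20%, against 16.2%), the TATA box in 4 (16%, against 14.2%) and the GC box in 4 (16%, against 35.9%). A match is a description of letters and not a bound site.

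The counts by role, here and below, stand beside shares of 17.3% higher and 23% lower over all genes. Among the 4 signalling chains of the receptor complex, 1 (Cd3g) was higher on the OVA arrays and 3 did not pass the test. Cd3g, the gamma chain of CD3, had log2 ratios of 0.17, 0.44, 0.32, 0.39 and 0.25 on OVA arrays 1 to 5, against 0, -0.07, 0.07 and 0 on PBS arrays 1 to 4. All OVA arrays lay above all PBS arrays. The change was 0.31 ± 0.06 (SE), or 1.24-fold, with an adjusted p of 0.00261. Cd3e, the epsilon chain that every CD3 pair contains, had log2 ratios of -0.05, 0, 0.06, -0.04 and 0.07 on the OVA arrays and of 0.03, -0.02, -0.06 and 0 on the PBS arrays. The groups overlapped throughout, and the 95% interval of the difference, -0.06 to 0.10 on the log2 scale (adjusted p 0.677), was the tightest of the 4 chains. Cd3d, the delta chain, had log2 ratios of -0.06, 0.29, 0.53, 0.25 and 0.14 on the OVA arrays, against 0, -0.07, 0.13 and 0 on the PBS arrays. Array 1 of the OVA group lay among the PBS arrays while the other 4 lay above them, and the change of 0.22 ± 0.11 did not pass the test (adjusted p 0.157). Without OVA array 1 it was 0.29, with an adjusted p of 0.0330. Cd247, the zeta chain, had log2 ratios of 0.32, 0.29, -0.26, 0.15 and 0.14 on the OVA arrays, against 0, 0, 0.29 and 0 on the PBS arrays. OVA array 3 was the lowest of all 9, and the change was 0.06 ± 0.13 (adjusted p 0.771). Its 3 probes disagreed: with each probe tested on its own, the second differed by -0.30 (adjusted p 0.0229) and the third by -0.40 (adjusted p 0.0648).

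Of the coreceptors, Cd4 was slightly higher and neither Cd8 chain passed the test. Cd4, the coreceptor of helper T cells that binds MHC class II, had log2 ratios of 0.24, 0.11, 0.21, 0.14 and 0.16 on the OVA arrays, against -0.04, -0.01, -0.09 and 0 on the PBS arrays. The groups did not overlap, and the change was 0.21 ± 0.03, or 1.16-fold (adjusted p 0.00116). Cd8a, the alpha chain of the MHC class I coreceptor, had log2 ratios of 0.19, 0, 0, 0.22 and 0.22 on the OVA arrays and of 0.19, 0, 0 and 0 on the PBS arrays. Its intensities lay between 0.06 and 0.08 in channel 2 of the OVA arrays, and since intensities carry 2 decimals, rounding alone can move the ratio of 1 array by up to 0.24. The groups overlapped, with a change of 0.08 ± 0.07 (adjusted p 0.411) and a 95% interval of -0.08 to 0.24. Cd8b1, the beta chain, had the same intensity in both channels of all 5 OVA arrays, and its change was -0.03 ± 0.03 (adjusted p 0.441).

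Surface molecules held the largest number of higher genes, with 5 of 7 called, a median change of 0.37 and none lower. Cd5, a scavenger-receptor family protein that dampens receptor signalling, had log2 ratios of 0.64, 1.04, 0.85, 1.04 and 0.81 on the OVA arrays, against -0.07, 0.27, -0.04 and -0.15 on the PBS arrays. Every OVA array lay above the highest PBS array, and the change was 0.87 ± 0.11, or 1.83-fold (adjusted p 0.000330). Thy1, the glycoprotein that marks mouse T cells and is also made by fibroblasts and some innate lymphocytes, had log2 ratios of 0.64, 0.91, 0.71, 0.70 and 0.75 on the OVA arrays, against -0.07, 0.01, 0.03 and 0 on the PBS arrays. The PBS arrays were all near 0 and the OVA arrays all above 0.6, with a change of 0.75 ± 0.05, or 1.68-fold (adjusted p 1.18e-05). Of its 2 dimmer probes, tested on their own, one was higher by 0.45 (adjusted p 0.00723) and the other differed by -0.06 (adjusted p 0.425). Cd2, an adhesion molecule of T and NK cells, was higher by 0.48 ± 0.09 (adjusted p 0.00301). Cd6, a relative of Cd5, was higher by 0.37 ± 0.04 (adjusted p 0.000152), and Cd28, the receptor for the costimulatory ligands B7, by 0.36 ± 0.04 (adjusted p 0.000227). For all 3, the OVA arrays lay above the PBS arrays. Cd69, which appears early on activated lymphocytes, had a wide spread among the OVA arrays and a change of 0.31 ± 0.15 (adjusted p 0.160). It passed without OVA array 3 (0.41, adjusted p 0.0342). Cd96, a receptor of T and NK cells, differed by -0.11 ± 0.08 (adjusted p 0.340).

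The proximal signalling genes were split, with 2 higher, 1 lower and 2 not called, where 17.3% of all genes were higher and 23% lower. Lck, the kinase that starts the signal, was higher by 0.46 ± 0.10 (adjusted p 0.00531), and Lat, the membrane adaptor downstream of it, by 0.35 ± 0.08 (adjusted p 0.00804). Zap70, the kinase between them, differed by -0.11 ± 0.05 (adjusted p 0.0886), on the other side of 0. Trat1, an adaptor that associates with the receptor, differed by 0.22 ± 0.09 (adjusted p 0.0911). Without OVA array 2, Zap70 passed the test as lower (-0.14, adjusted p 0.0366), and without PBS array 2, Trat1 passed it as higher (0.30, adjusted p 0.0137). Rounding can move the ratio of 1 array by up to 0.225 for Trat1 and 0.152 for Lat. Txk, a Tec-family kinase of T cells, was lower, with a change of -0.36 ± 0.11 (adjusted p 0.0283), and this call ended when OVA array 1, 3 or 5 or PBS array 3 or 4 was left out (adjusted p between 0.0572 and 0.0784).

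Both cytokine receptor genes were higher. Il2rb, the beta chain shared by the receptors of IL-2 and IL-15 on activated T cells and NK cells, had log2 ratios of 1.16, 1.33, 1.01, 1.06 and 1.16 on the OVA arrays, against 0.08, -0.05, 0.07 and 0 on the PBS arrays. The gap between the groups was far wider than the spread within either, with a change of 1.12 ± 0.06, or 2.17-fold, and the smallest adjusted p of the 33 genes (3.75e-06). Il7r, the IL-7 receptor chain that keeps resting T cells alive and also marks innate lymphocytes, was higher by 0.53 ± 0.06, or 1.45-fold (adjusted p 0.000151), without overlap.

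The transcription factors went both ways, and this role alone had a median below 0 (-0.29). Lef1, an HMG-box factor of naive T cells that endothelium and epithelium can also express, had log2 ratios of -0.88, -0.53, -0.57, -0.46 and -0.62 on the OVA arrays, against 0, 0.05, 0.16 and -0.06 on the PBS arrays. All OVA arrays lay below all PBS arrays, with array 1 the lowest, and the change was -0.65 ± 0.09, or 1.57-fold lower (adjusted p 0.000424). Its partner Tcf7, which encodes TCF-1 of naive and memory T cells, was lower, with a change of -0.29 ± 0.07 (adjusted p 0.00949). Eomes, a T-box factor of NK cells and memory CD8+ T cells, was higher by 0.49 ± 0.09, or 1.41-fold (adjusted p 0.00259). None of these 3 genes overlapped between the groups.

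Of the 6 cytotoxic genes, 1 was higher, 1 was lower and 4 did not pass the test. Over all genes 17.3% were higher and 23% lower, so these counts do not set the cytotoxic genes apart. Gzmb, the granzyme that cuts caspases in target cells, had log2 ratios of 1.00, 1.09, 0.83, 0.54 and 0.70 on the OVA arrays, against -0.10, -0.18, 0.25 and 0.18 on the PBS arrays. The lowest OVA array still lay above the highest PBS array, and the change was 0.79 ± 0.14, or 1.74-fold (adjusted p 0.00168). Its intensities were at most 0.19, and rounding can move the ratio of 1 array by up to 0.15. Prf1, the pore-forming perforin stored in the same granules, was lower, with a change of -0.37 ± 0.05 (adjusted p 0.000454), without overlap. Gzma, the granzyme abundant in NK cells, differed by 0.12 ± 0.13 (adjusted p 0.50), with a 95% interval of -0.17 to 0.42. Nkg7, a granule membrane protein, differed by 0.19 ± 0.08 (adjusted p 0.106), and it passed with loess within arrays (0.22, adjusted p 0.0464). Ncr1, the activating receptor NKp46 that marks NK cells, differed by -0.24 ± 0.13 (adjusted p 0.176). Fasl, the Fas ligand, was recorded at 0.02 in both channels of all 9 arrays, so its ratio was 0 throughout and a change could not be seen at this resolution.

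All 3 cytokine genes passed the test as higher, with unequal support. Ifng, the signature cytokine of type 1 T cells and NK cells, had log2 ratios of 1.22, 1.58, 1.06, 0.93 and 1.29 on the OVA arrays, against -0.13, -0.26, 0.06 and 0.16 on the PBS arrays. The groups lay far apart, and its change of 1.26 ± 0.14, or 2.39-fold, was the largest of the 33 genes (adjusted p 0.000162). Ltb, which encodes the membrane-bound lymphotoxin beta, was higher by 0.27 ± 0.09 (adjusted p 0.0411). That call ended when any 1 of 7 arrays was left out (adjusted p between 0.0551 and 0.0982). Il17a, the cytokine of type 17 T cells and gamma delta T cells, had log2 ratios of 0.26, 0, 0.26, 0.26 and 0.26 on the OVA arrays and of 0 on all 4 PBS arrays. The groups overlapped at 0, and the call (0.21 ± 0.06, adjusted p 0.0186) rested on intensities of 0.06 in channel 2 against 0.05 in channel 1, the last decimal of the table.

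The authors' deposited p-values compare the channels of each array. In the authors' deposited table, 7 genes had p under 0.05 on all 5 OVA arrays (Cd5, Il7r, Il2rb, Thy1, Lef1, Gzmb and Ifng), where 11.3% of all genes did. No member passed it on any PBS array and 13 passed it on no OVA array. For these last counts no share of all genes was taken, so whether the members stand apart cannot be said.

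Read one channel at a time, the calls lay in channel 1. In channel 2, which holds the sample lungs by the labels, 0 of the 33 genes passed the test (limma, where 2 of 25721 genes or 0.00778% did), 0 had an unadjusted p under 0.05 (3.62% of all genes), and the groups overlapped for all 33. Groups without overlap in channel 2 were rare over all genes too, at 0.456% above and 0.183% below. The median change of the 33 genes was -0.01 in channel 2, against -0.03 for all genes. In channel 1, the labelled pool, 15 of the 33 genes passed the test, where 27.7% of all genes did (at an unadjusted p under 0.05, 18 of the 33 and 36.7% of all genes). Of the 15 called, 12 were lower on the OVA arrays (12.0% of all genes) and 3, Lef1, Tcf7 and Txk, were higher (15.6% of all genes). The median change was -0.20 in channel 1, against -0.04 for all genes. Without overlap, 12 genes lay lower (11.2% of all genes) and 2 higher (14.9% of all genes). All 15 were also called in the ratio with the opposite sign. Channel 1 is the divisor of the ratio and none of the 33 genes passed in channel 2. The opposite sign thus follows from the arithmetic and is no separate result. The other 5 called in the ratio (Cd4, Ltb, Prf1, Eomes and Il17a) did not pass in channel 1.

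**Figure D2:**
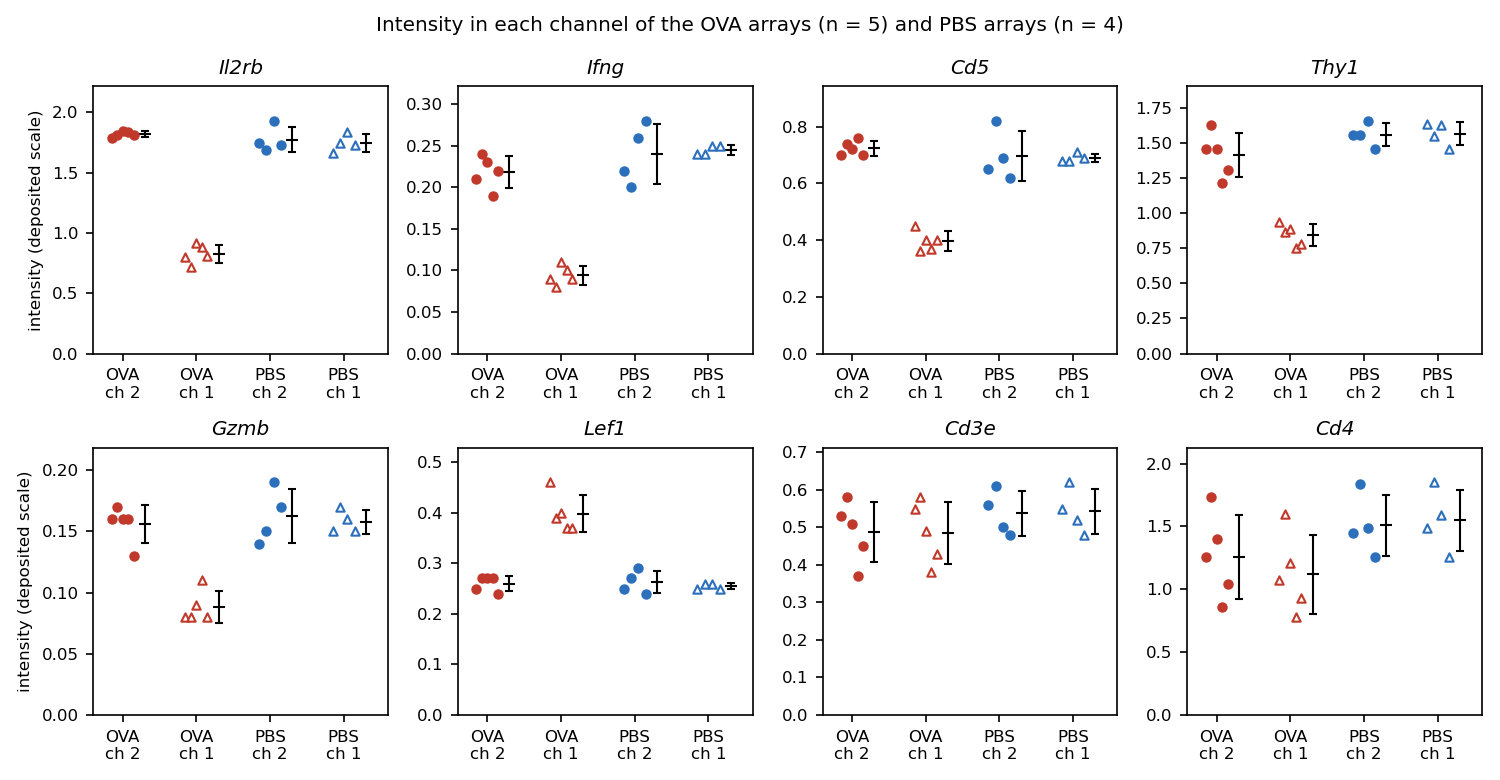
Intensity on the deposited scale (vertical axis) of 8 genes in each channel of the OVA arrays (red) and PBS arrays (blue), with channel 2 as filled circles, channel 1 as open triangles and bars at the mean ± SD. For Il2rb, Ifng, Cd5, Thy1 and Gzmb channel 1 of the OVA arrays lies below the 3 other sets, for Lef1 it lies above them, and for Cd3e and Cd4 the 4 sets overlap.

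The intensities show this array by array. Il2rb had 1.79, 1.81, 1.85, 1.84 and 1.81 (channel 2) and 0.80, 0.72, 0.92, 0.88 and 0.81 (channel 1) on the OVA arrays. On the PBS arrays it had 1.75, 1.69, 1.93 and 1.73 (channel 2) and 1.66, 1.75, 1.84 and 1.73 (channel 1). Only channel 1 of the OVA arrays stood away from the rest, by -1.08 ± 0.08 on the log2 scale against channel 1 of the PBS arrays (adjusted p 1.34e-05). Ifng had 0.21, 0.24, 0.23, 0.19 and 0.22 (channel 2) and 0.09, 0.08, 0.11, 0.10 and 0.09 (channel 1) on the OVA arrays. On the PBS arrays it had 0.22, 0.20, 0.26 and 0.28 (channel 2) and 0.24, 0.24, 0.25 and 0.25 (channel 1). Its channel 1 difference was -1.39 ± 0.09, while channel 2 differed by -0.13 ± 0.11 (adjusted p 0.874). Cd5 had 0.70, 0.74, 0.72, 0.76 and 0.70 (channel 2) and 0.45, 0.36, 0.40, 0.37 and 0.40 (channel 1) on the OVA arrays, and between 0.62 and 0.82 in both channels of the PBS arrays. Thy1 had 1.46, 1.63, 1.46, 1.22 and 1.31 (channel 2) and 0.94, 0.87, 0.89, 0.75 and 0.78 (channel 1) on the OVA arrays, and between 1.46 and 1.66 in both channels of the PBS arrays. The channel 1 differences were -0.81 ± 0.08 for Cd5 and -0.90 ± 0.08 for Thy1. Gzmb had 0.16, 0.17, 0.16, 0.16 and 0.13 (channel 2) and 0.08, 0.08, 0.09, 0.11 and 0.08 (channel 1) on the OVA arrays, against 0.14 to 0.19 in both channels of the PBS arrays. Lef1 had 0.25, 0.27, 0.27, 0.27 and 0.24 (channel 2) and 0.46, 0.39, 0.40, 0.37 and 0.37 (channel 1) on the OVA arrays, against 0.24 to 0.29 in both channels of the PBS arrays. Lef1 was thus the mirror image of the other 5, with channel 1 of the OVA arrays the brightest set.

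The ratio and the single channels also differed in how steady they were. Cd4 had 1.26, 1.73, 1.40, 0.86 and 1.04 (channel 2) and 1.07, 1.60, 1.21, 0.78 and 0.93 (channel 1) on the OVA arrays. On the PBS arrays it had 1.45, 1.84, 1.49 and 1.26 (channel 2) and 1.49, 1.85, 1.59 and 1.26 (channel 1). Both channels of an array were high or low together, so the ratio was steady while neither channel passed the test alone (channel 1 -0.50 ± 0.20, adjusted p 0.104). Cd3e had 0.53, 0.58, 0.51, 0.37 and 0.45 (channel 2) and 0.55, 0.58, 0.49, 0.38 and 0.43 (channel 1) on the OVA arrays. On the PBS arrays it had 0.56, 0.61, 0.50 and 0.48 (channel 2) and 0.55, 0.62, 0.52 and 0.48 (channel 1). It too moved with the array and not with the channel. Cd3g had 0.17 to 0.20 (channel 2) and 0.13 to 0.16 (channel 1) on the OVA arrays, against 0.19 to 0.21 in both channels of the PBS arrays. Cd3d reached 0.39 in channel 2 and 0.27 in channel 1 of OVA array 3, and lay between 0.16 and 0.24 in both channels of all other arrays. Over the 33 genes, the median SD between arrays of the log2 ratio was 0.13 on the OVA arrays and 0.092 on the PBS arrays. The same median for log2 channel 1 was 0.175 on the OVA arrays and 0.0867 on the PBS arrays, and for log2 channel 2 it was 0.107 and 0.144.

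**Figure D3:**
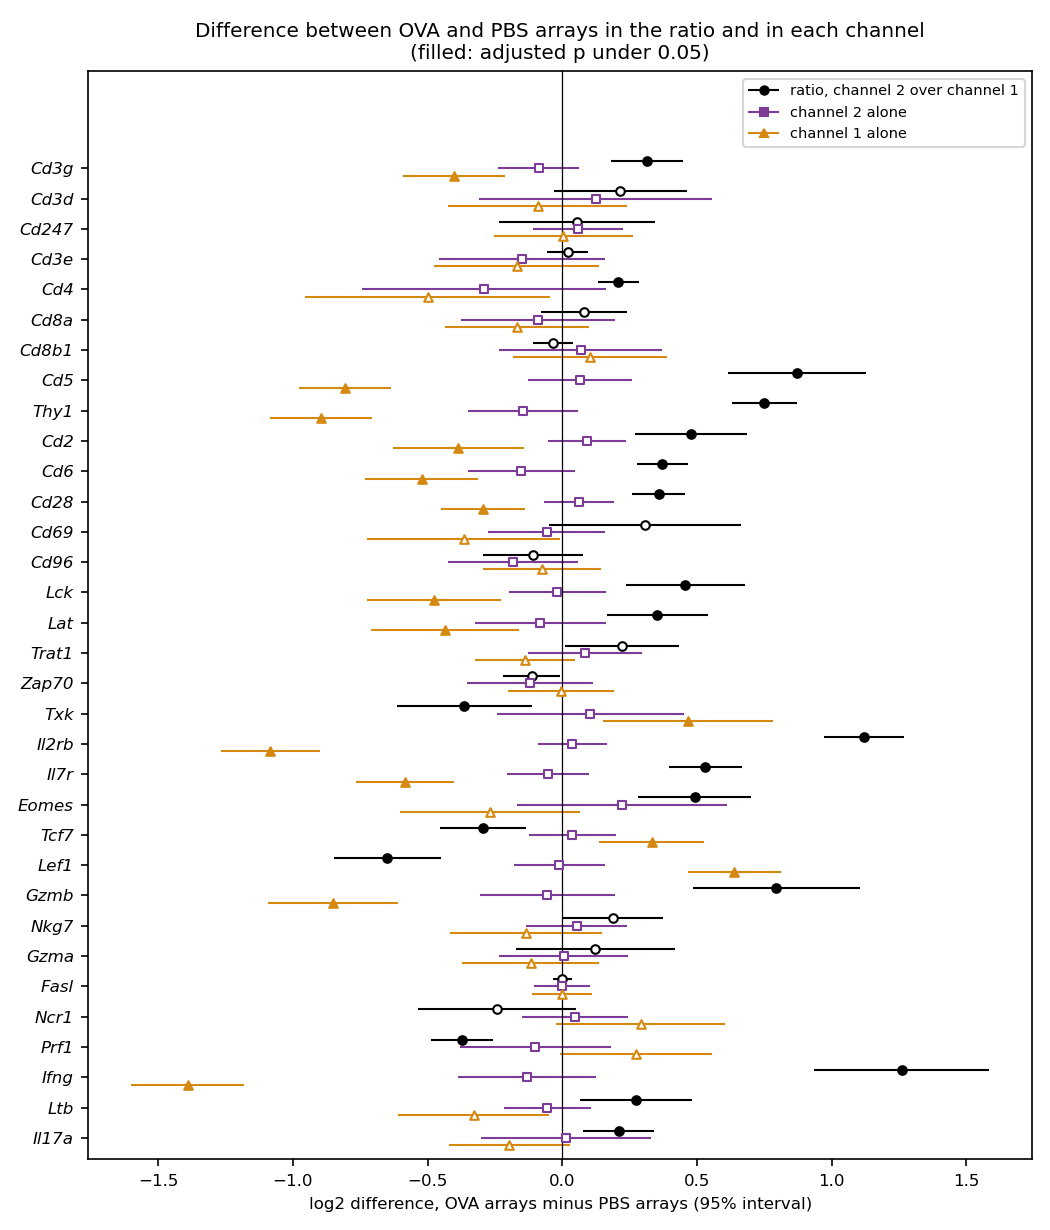
The log2 difference between OVA and PBS arrays with its 95% interval (horizontal axis) for each of the 33 genes (vertical axis), in the ratio (circles), channel 2 alone (squares) and channel 1 alone (triangles), with filled symbols for an adjusted p under 0.05. The channel 2 symbols are all open with intervals that include 0, and lie farthest from 0 for Cd4 (-0.29) and Eomes (0.22). The filled channel 1 symbols lie across 0 from those of the ratio, of which channel 1 is the divisor.

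Other genes of the same cells were read from the same fit. Of 67 further T cell, NK and cytotoxic genes, 35 were higher in the ratio, 8 were lower and 24 did not pass, against 17.3% higher and 23% lower of all genes. Their median change was 0.18, against -0.02 for all genes. In channel 1, 7 were higher and 29 lower, against 15.6% and 12.0% of all genes. In channel 2 none passed, against 0.00778% of all genes. Among 20 genes of T cell receptor signalling, 13 were higher and 2 lower (median 0.42), led by Vav1, an exchange factor for Rac (1.07 ± 0.07, adjusted p 5.65e-06). The adaptors Sh2d2a (1.07 ± 0.07) and Lcp2, which encodes SLP-76 (1.05 ± 0.07), were close behind it. Among 20 surface and trafficking genes, 11 were higher and 3 lower (median 0.38). Pdcd1, the inhibitory receptor PD-1, was 4.4-fold higher (2.14 ± 0.09, adjusted p 5.93e-07), with intensities of 0.256 ± 0.0207 (channel 2) and 0.058 ± 0.00837 (channel 1) on the OVA arrays (SD, n = 5), against 0.263 ± 0.00957 (channel 2) and 0.26 ± 0.00816 (channel 1) on the PBS arrays (SD, n = 4). Cxcr6, a chemokine receptor of tissue T cells, was 2.02-fold higher (1.01 ± 0.11). Pdcd1 lay above every one of the 33 genes, and Cxcr6 above all of them but Ifng and Il2rb.

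The 10 further transcription factors were balanced, with 3 higher and 3 lower (median 0.06), where 17.3% of all genes were higher and 23% lower. Ets1 (-0.53 ± 0.11, adjusted p 0.00459) and Gata3, the type 2 helper factor (-0.36 ± 0.09, adjusted p 0.00974), were lower, and Ikzf1, the lymphoid factor Ikaros, was higher (0.52 ± 0.10, adjusted p 0.00354). Of 17 further cytotoxic and NK genes, 8 were higher and none lower (median 0.18). The largest changes were those of Cst7, an inhibitor of granule cathepsins (1.28 ± 0.09), and of the signalling adaptors Fcer1g (0.97 ± 0.05) and Tyrobp (0.80 ± 0.06), both of which myeloid cells use as well.

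**Figure D4:**
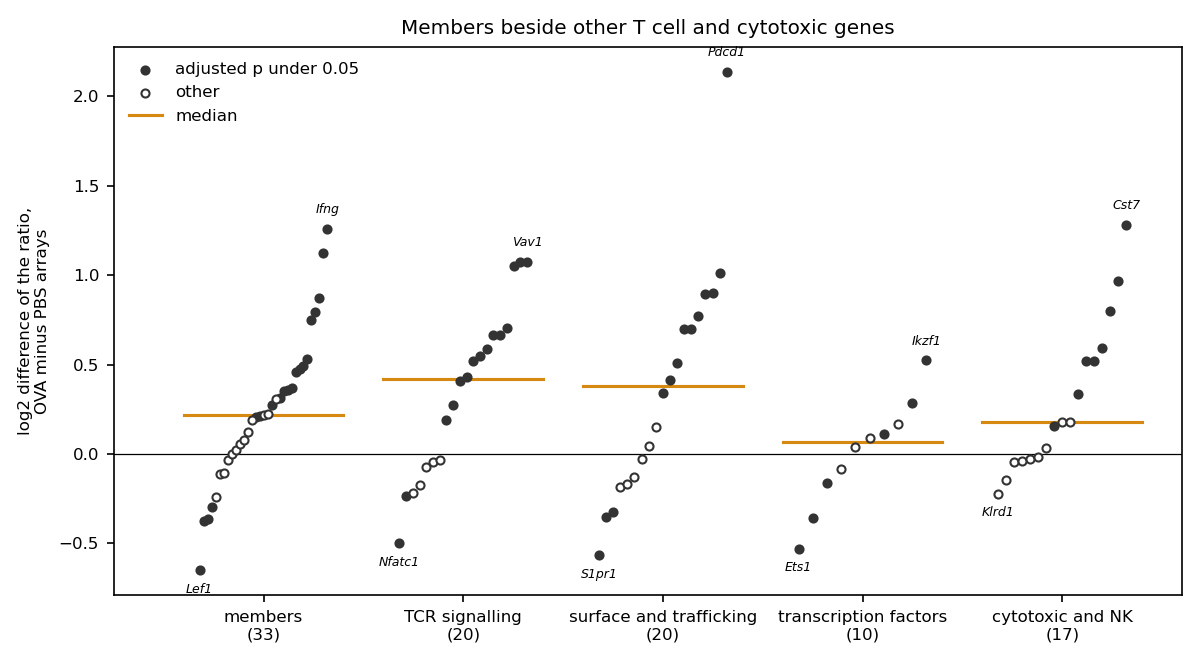
The log2 difference of the ratio between OVA and PBS arrays (vertical axis) for the 33 genes and for 4 lists of other T cell and cytotoxic genes (horizontal axis, with the number of genes), with filled points for an adjusted p under 0.05 and lines at the medians of the whole lists. One surface and trafficking gene counted in its list is not drawn, and Pdcd1 at 2.14 lies above every one of the 33 genes.

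Markers of other cells that lung or nearby tissue can hold moved with the ratio to different degrees, and their part in the results above was not tested. Summed intensities are given for each group as channel 2 and then channel 1. All 6 genes of dividing cells were higher (median 2.73), with summed intensities of 14.9 to 15.1 (channel 2) and 2.07 to 2.79 (channel 1) on the OVA arrays, and of 14 to 15.6 and 13.9 to 15.3 in the same channels of the PBS arrays. Of 8 macrophage and dendritic cell genes, 6 were higher and 1 lower (sums of 40.7 to 43.5 and 13.2 to 14.5 on the OVA arrays, and of 42.0 to 43.7 and 42.5 to 43.3 on the PBS arrays). Of 7 genes of group 2 innate lymphoid cells, of which Gata3 and Klrg1 are also among the 67, 4 were higher and 2 lower (7.35 to 7.54 and 2.90 to 3.27 on the OVA arrays, and 6.71 to 7.70 and 6.97 to 7.52 on the PBS arrays). The higher genes were Il13, Arg1, Il1rl1 and Klrg1, with log2 changes of 4.73, 3.88, 1.48 and 0.59. The transcription factor genes Gata3 (-0.36) and Rora (-0.77) were the lower ones, and Areg was not called. Of 4 eosinophil genes, 2 were higher and none lower (14.3 to 16 and 4.10 to 4.86 on the OVA arrays, and 14.4 to 17.1 and 15.2 to 15.7 on the PBS arrays). Most of each eosinophil sum was Ear2, with means of 13.99 and 3.66 on the OVA arrays, and 14.11 and 14.29 on the PBS arrays. Ear2 and the dimmer Epx were called, while Prg2 (limma adjusted p 0.0715) and Ccr3 (limma adjusted p 0.902) were not. In these 4 lists, and in the list of lymph node stroma given next, channel 1 of the OVA arrays lay below the 3 other sets of sums. Lists of B cells, thymus and lymph node stroma hold genes of lymphoid tissue that can be carried over with a lung. Of 9 B cell genes, 2 were higher and none lower (6.67 to 6.85 and 4.78 to 7.03 on the OVA arrays, and 6.39 to 7.01 and 6.47 to 6.93 on the PBS arrays). Of 8 thymus genes, 1 was higher and 1 lower, and of 6 lymph node stroma genes, 1 was higher and 1 lower, where 40.3% of all genes passed the test. The thymus sums were 2.56 to 2.97 and 2.74 to 4.27 on the OVA arrays, and 2.37 to 2.78 and 2.45 to 2.74 on the PBS arrays. Most of each thymus sum was Cd1d1, with means of 2.37 and 3.02 on the OVA arrays, and 2.135 and 2.167 on the PBS arrays. Cd1d1 was the gene called lower (limma adjusted p 0.0387). Dntt was the gene called higher (limma adjusted p 0.0302), at 0.024 and 0.016 on the OVA arrays. Rag1, Rag2, Ptcra and Arpp21, with mean intensities of 0.0244 to 0.0444, were not called. The stroma sums were 3.69 to 3.77 and 0.92 to 2.87 on the OVA arrays, and 2.90 to 4.55 and 3.75 to 3.89 on the PBS arrays. The called stroma genes, named here after their values were seen, were Cxcl13 and Ccl21a. Cxcl13, a chemokine that attracts B cells, read 2.40 ± 0.0606 for channel 2 and 0.344 ± 0.139 for channel 1 on the OVA arrays, against 2.42 ± 0.563 and 2.42 ± 0.0337 on the PBS arrays (mean intensities with SD), and its log2 ratio was higher by 2.94 ± 0.34 (limma adjusted p = 0.00018). Ccl21a, a chemokine that attracts T cells and dendritic cells, was lower by a log2 change of -0.45 ± 0.08 (limma adjusted p = 0.00259). Neutrophil genes had 1 higher and 2 lower of 5 (21.6 to 23.4 and 25.8 to 37.9 on the OVA arrays, and 19.2 to 26 and 21.7 to 23.4 on the PBS arrays), and mast cell and basophil genes 2 higher and 1 lower of 4 (2.79 to 3.09 and 2.40 to 3.14 on the OVA arrays, and 2.44 to 3.58 and 2.78 to 2.89 on the PBS arrays). Most of each neutrophil sum was S100a9, with means of 14.63 and 22.39 on the OVA arrays, and 14.99 and 15.45 on the PBS arrays. No marker was at 0, and the lowest mean intensity among the thymus genes was 0.0233, for Dntt.

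The 9 arrays limit the precision of every value here. The mean intensities of the member probes ran from 0.02 to 9.57, and the median intensity of an array was between 0.12 and 0.17. Some members lay below that range, among them Cd8a (0.07), Il17a (0.053) and Fasl (0.02).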

How the data were processed

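Whole-lung total RNA was hybridised to 9 Agilent 2-colour arrays. The channel 2 source in the labels put 5 of them in the OVA group and 4 in the PBS group. Agilent Feature Extraction 8.5.1.1 produced the scanner output, as the submitters' processing notes say. Per the file headers, the main deposited table has 39464 probes with, for every array, the intensity of both channels and a p-value. These intensities carry 2 decimals. How the authors corrected background, scaled and normalised the dyes is not given in the sources used here. Log10 ratios in another deposited table (39462 probes) lay within 0.005 of log10 of channel 2 over channel 1 on every array. Dyes are absent from the headers, and channel 2 was taken as Cy5 on the strength of the labels. An array had values for 39376 to 39451 probes. Spot background, saturation flags, slides and scan dates were not used.

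Probe symbols were brought up to date with a RefSeq gene table of GRCm38.p6, the build of the promoters too: 22966 were current, 3130 were synonyms, 4009 were kept as filed, 17 came from an accession, 9317 were without a name and 25 had become dates. A gene was represented by its probe of highest mean intensity. From the deposited intensities, log2 ratios and the log2 intensities of each channel were computed, and OVA arrays were set against PBS arrays by limma (version 3.58.1, R 4.3.3), using lmFit and eBayes with no covariate. Tests were two-sided, with Benjamini-Hochberg adjustment over the 25721 genes that had 2 or more values per group. Errors of changes are moderated standard errors, and "called" means an adjusted p under 0.05. The fit was tested on simulated ratios. Tables were handled with Python 3.11.15 and pandas 2.3.3.

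The 33 genes and all gene lists were chosen with earlier results of these data known, so their counts are descriptions and no list test was run. Values on each array are given for members called with at least a 1.5-fold change, for the 4 CD3 and zeta chains, and for Cd4 and Cd8a. Of the other T cell genes, up to 3 per subgroup with the largest called change are named, and 1 gene that this rule names is counted in its list but not reported here. Clca1 and Fabp1 are given for the channel levels. The settings tried instead were the log10 table, ratios after quantile normalization or centring on the median, a loess inside every array (span 0.3), a constant of 0.05 in both channels, removal of the dimmest 0.25 of genes, averaging of probes, a replicate block, omission of single arrays, weighted arrays, a robust trended prior, turned signs, the OVA arrays by themselves, and stricter thresholds.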

Additional observations from a re-analysis of the deposited data

Results flagged for a closer look

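Of 198 sets of values (33 genes, each with its ratio and its channels in both groups), 19 held an array whose gap to the nearest other array, divided by the range of its group, was above Dixon's 95% critical value. Chance flags about 1 in 20 such sets, and many of these gaps are a single step of the last decimal. The cause was tested for none of them.

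The wider gaps were these. Cd3d had a channel 2 intensity of 0.39 on OVA array 3, against 0.19 to 0.23 on the other OVA arrays. Eomes on the same array had 0.48 in channel 2, against 0.27 to 0.30. Txk had 0.36 in channel 2 of OVA array 4, against 0.23 to 0.26. Cd69 had 0.29 in channel 2 of PBS array 3, against 0.22 to 0.23, Ltb on that array had 11.3 in channel 2, against 9.82 to 9.97, and Cd2 had 4.34 in its channel 1, against 3.90 to 3.97. Gzmb had 0.13 in channel 2 of OVA array 5, against 0.16 to 0.17. Zap70 had 0.25 in channel 1 of OVA array 5, against 0.28 to 0.29. Prf1 had 0.19 in channel 1 of PBS array 2, against 0.16 on the others.

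The remaining gaps lay at the resolution of the table. On OVA array 2, Il17a had 0.04 in channel 2 (0.06 on the others) and 0.04 in channel 1 (0.05 on the others), with a log2 ratio of 0.0 against 0.263. Trat1 had a log2 ratio of 0.0 on OVA array 1, against 0.193 to 0.222, and a channel 1 intensity of 0.08 on PBS array 4, against 0.07. Among PBS arrays whose other log2 ratios were 0, Cd247 had 0.29 on array 3, Cd8a had 0.193 on array 1 and Cd8b1 had 0.138 on array 4. In channel 1 of PBS array 1, Cd3d had 0.21, against 0.22, and Ncr1 had 0.16, against 0.17.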

How the results depend on the processing

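Calls of the 33 genes were 20 in the ratio, 16 higher and 4 lower. Quantile-normalised ratios left 7 (6 higher, 1 lower), and over all genes 2036 higher and 1929 lower. With a 2-fold minimum, 2 were called, 2 higher and 0 lower. Of the 67 other T cell and cytotoxic genes, quantile-normalised ratios left 24 (24 higher, 0 lower) of 43, and the 2-fold minimum left 7 (7 higher, 0 lower). Deviations of same-numbered OVA and PBS arrays had correlations between -0.153 and 0, which cannot show whether the samples were paired. A replicate block gave 15 members higher and 2 lower, ending the calls of Tcf7, Txk and Il17a. OVA array 5 has no PBS array of the same number, so with the block it did not enter the change. Over all genes it gave 3307 higher and 4358 lower, where the main fit gave 4458 and 5915.

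With the OVA ratios turned in sign, 4 members were higher and 16 lower, and 8 and 32 of the other genes. Every called member was reversed by construction: Cd3g -0.31, Cd4 -0.14, Cd2 -0.48, Cd5 -0.88, Cd6 -0.41, Cd28 -0.38, Il7r -0.56, Il2rb -1.17, Lck -0.53, Lat -0.40, Thy1 -0.73, Ltb -0.28, Gzmb -0.87, Eomes -0.56, Ifng -1.18 and Il17a -0.21 became lower, and Txk 0.33, Tcf7 0.29, Lef1 0.57 and Prf1 0.37 became higher.

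Leaving out each array in turn gave 18 to 20 members called (15 to 17 higher, 3 to 5 lower), 38 to 44 other genes (30 to 36 higher, 7 to 10 lower), 12 to 17 members in channel 1 (1 to 4 higher, 10 to 14 lower) and 0 in channel 2. Over all genes, leaving out each array in turn gave 9148 to 10161 calls in the ratio, where the main fit gave 10373. For the single channels no share of all genes was taken with an array left out. Without PBS array 4, 1 member was higher in channel 1. Txk and Ltb lost their call when single arrays were left out. Apart from the turned sign, 7 of the 20 called members kept an adjusted p under 0.05 in every setting that gave them a value: Cd3g, Cd4, Cd28, Il2rb, Thy1, Lef1 and Ifng. For Cd2, Cd5, Cd6, Il7r, Lck, Lat, Gzmb, Prf1 and Eomes, only quantile-normalised ratios took the adjusted p to 0.05 or above. Quantile normalization gives all arrays the same distribution of ratios. Before it, the SD of the log2 ratio over all genes was 0.437 to 0.503 on the OVA arrays. On the PBS arrays it was 0.121 to 0.177. The cause of the losses was not tested. Rounding limits the dim probes, and for 10 members it can move the log2 ratio of 1 array by over 0.1.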
